A study of Mus musculus with 12 samples.

Results

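Intergenic transcriptional regulatory elements (TREs) near protein-coding genes are places in mouse spermatocytes where RNA polymerase II was called as starting transcription outside the genes of the GENCODE M21 annotation, within a set distance of a protein-coding gene. A TRE is a stretch of the genome covered by at least 1 dREG peak, after peaks of the 3 substages of prophase I that overlapped or touched had been joined. A TRE was taken as near-gene intergenic when it lay on chromosomes 1 to 19, its midpoint was in no gene of GENCODE M21 (mm10), its edge was 1000 bp or more from every transcription start site (TSS) and under 50000 bp from the nearest protein-coding TSS. Of 65172 TREs in all, 63116 lay on these chromosomes and 9893 (15.7%) met the rule. The others were 25410 TREs under 1000 bp from a TSS, 15960 in introns, 2214 in exons and 9639 intergenic TREs 50000 bp or more from a protein-coding TSS.

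The assay was leChRO-seq, in which polymerases held on chromatin extend their RNA with biotin-labelled nucleotides. All 12 libraries came from wild-type (WT) mice, 4 each from cells enriched for leptonema/zygonema, pachynema and diplonema. The study describes adult animals of the C57Bl/6J or DBA/2J background, and cells separated by size and density in a gravity gradient (STAPUT), so each fraction is enriched rather than pure. Peaks had been called once per substage on its pooled libraries, so there is no spread between replicates, no test between substages was possible, and the 95% Wilson intervals given here cover counting error only. No agent was given, and the labels do not say whether the libraries came from separate mice. The peak lists hold no read counts. The paper gives a range of sequencing depths over its assays and a normalization factor for each library. The depth behind each pooled list was not worked out from them here. At the promoters, 14 of 16 genes of the synaptonemal complex and meiotic axis had a peak at their promoter in each substage, and Sycp1, Sycp3, Dmc1 and Spo11 had one in all 3. Of all protein-coding genes, 50.2% had one in all 3. Lists of genes used in many cells were as high, with any promoter peak at 52 of 54 ribosomal protein genes and 20 of 21 pausing and elongation genes, so the count does not set these cells apart. Of 24 marker genes of somatic testis cells, 9 had a promoter peak in any substage, against 64.8% of all protein-coding genes. Pachynema had a peak at 8 of them and the other substages at 4 each, against 60.7%, 61.2% and 52.3% of all protein-coding genes in leptonema/zygonema, pachynema and diplonema. Amh, Cyp17a1, Star and Acta2 had none, whereas Sox9 had one in all 3 and Cyp11a1 one in pachynema.

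Enhancers are DNA elements that raise the transcription of a gene from a distance, and active enhancers are themselves transcribed in both directions into short, unstable RNAs. dREG is a machine-learning tool that recognises this paired pattern of initiation in run-on data and gives each peak a score that rises with the clarity of the pattern, without telling enhancers from promoters. During prophase I homologous chromosomes pair, synapse and recombine, and in pachynema the transcription factor A-MYB is known to drive many genes of meiosis and sperm formation, while RFX and CREM factors are known for ciliary and spermatid genes.

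Some of these TREs are shown by their sequence because the report turns on what letters lie at their centres. Each is the 200 bp around the centre of the highest-scoring peak, read 5′ to 3′ on the plus strand of mm10, from windows without soft-masked repeat bases. The first set holds the highest-scoring such TRE of 4 call patterns. The TRE nearest to Tbx19 (chr1:165109181-165109380) was called in all 3 substages, that nearest to Sub1 (chr15:11978951-11979150) in leptonema/zygonema only, that nearest to Plekha5 (chr6:140386331-140386530) in pachynema only, and that nearest to Grhl2 (chr15:37197981-37198180) in pachynema and diplonema. None of the 4 windows holds GGCNGTT or CAGTTG (MYB), GTTGCCA or GTTGCTA (RFX) or TGACGTCA (CREB/CREM) on either strand, so no base is in capitals.
Tbx19: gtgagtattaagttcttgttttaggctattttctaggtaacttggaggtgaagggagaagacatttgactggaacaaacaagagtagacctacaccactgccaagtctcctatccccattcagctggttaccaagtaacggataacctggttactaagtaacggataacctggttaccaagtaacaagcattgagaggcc
Sub1: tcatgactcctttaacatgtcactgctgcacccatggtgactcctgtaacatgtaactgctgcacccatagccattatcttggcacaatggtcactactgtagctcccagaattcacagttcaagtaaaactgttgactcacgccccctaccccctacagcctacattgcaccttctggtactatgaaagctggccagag
Plekha5: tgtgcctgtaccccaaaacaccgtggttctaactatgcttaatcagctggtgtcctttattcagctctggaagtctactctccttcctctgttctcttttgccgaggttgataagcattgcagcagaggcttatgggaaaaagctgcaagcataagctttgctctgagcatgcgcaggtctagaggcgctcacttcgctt
Grhl2: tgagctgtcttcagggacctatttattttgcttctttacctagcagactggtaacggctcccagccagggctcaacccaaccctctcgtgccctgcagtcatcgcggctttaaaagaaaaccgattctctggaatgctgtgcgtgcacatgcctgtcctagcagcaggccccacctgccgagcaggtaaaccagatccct

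The second set shows examples of the MYB, RFX and CREB/CREM words, whose shares by call pattern follow. The TREs nearest to Gm9376 (chr14:118283001-118283200) and Kcna5 (chr6:126501191-126501390) were, among such unmasked windows, the highest-scoring ones with a pachynema and no leptonema/zygonema peak that held GGCNGTT. Both were called in pachynema and diplonema. Capitals mark GGCAGTTG, in which the MYB words GGCNGTT and CAGTTG overlap, 51 bp and 42 bp from the centre. The TREs nearest to Pdia6 (chr12:17228031-17228230) and Rwdd4a (chr8:47599521-47599720) were called in all 3 substages and were chosen after the shares of these letters had been seen. Capitals mark TGGCAAC, the RFX word GTTGCCA on the minus strand, in the first, and TGACGTCA in the second. The Grhl2 and Pdia6 TREs each contain the start of a RefSeq long noncoding RNA (Gm41303 and Gm36568) although their midpoints lie in no GENCODE M21 gene.
Gm9376: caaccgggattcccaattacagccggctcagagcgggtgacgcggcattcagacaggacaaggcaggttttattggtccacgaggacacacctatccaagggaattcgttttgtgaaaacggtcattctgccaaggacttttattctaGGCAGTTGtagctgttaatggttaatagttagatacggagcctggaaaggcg
Kcna5: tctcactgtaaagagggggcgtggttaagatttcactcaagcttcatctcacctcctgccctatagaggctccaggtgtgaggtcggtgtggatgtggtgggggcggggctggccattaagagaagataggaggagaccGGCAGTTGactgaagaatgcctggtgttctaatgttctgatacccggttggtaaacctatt
Pdia6: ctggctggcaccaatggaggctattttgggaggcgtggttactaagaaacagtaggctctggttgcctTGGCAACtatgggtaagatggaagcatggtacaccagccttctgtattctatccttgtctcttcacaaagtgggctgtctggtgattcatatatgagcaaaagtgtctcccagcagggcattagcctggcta
Rwdd4a: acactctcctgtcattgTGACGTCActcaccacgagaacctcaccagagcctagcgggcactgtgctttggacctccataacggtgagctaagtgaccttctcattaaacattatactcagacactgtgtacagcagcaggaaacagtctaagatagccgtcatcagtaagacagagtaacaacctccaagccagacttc

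The label "intergenic" holds by construction in GENCODE M21, and was checked against RefSeq, which was not used in the rule. Of the 9893 TREs, 1046 (10.6%, interval 9.98 to 11.2) were under 1000 bp from a RefSeq transcript start, and 506 contained one. Long noncoding RNAs accounted for 769 of the 1046 and mRNAs for 231. Midpoints of 1617 TREs (16.3%) lay inside a RefSeq gene. The share near a RefSeq start rose with score, from 8.19% (interval 7.29 to 9.18) of TREs scoring under 0.4 to 16.9% (interval 15.1 to 19) of those scoring at least 1. Among call patterns it was 17.4% for TREs called in all 3 substages and 6.99% for those called in pachynema only. Diplonema-only TREs, the pattern with the lowest median score, had 13.0% (interval 9.84 to 17.0), against 10.4% (interval 9.24 to 11.7) for leptonema/zygonema with pachynema. By score, the stronger TREs thus lay more often at a transcript start that only RefSeq lists, although the call patterns did not all follow their scores.

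Near-gene intergenic TREs were narrow and of modest score. Their median width was 500 bp (90 to 3530 bp), and their median highest score was 0.503, against 0.757 for TREs under 1000 bp from a TSS, 0.531 for intergenic TREs farther from genes and 0.490 for intronic TREs. A single peak made up 50.0% of them, compared with 29.2% of promoter-proximal TREs. Both traits were shared with far intergenic and intronic TREs, whose median widths were 510 and 480 bp, with a single peak in 48.2% and 52.5%. Promoter-proximal TREs had a median width of 710 bp. A score of at least 1 was reached by 1452 near-gene intergenic TREs (14.7%), against 35.0% of promoter-proximal TREs and 18.9% of the far intergenic ones. Within each substage's own list, peaks of near-gene intergenic TREs had median scores of 0.519, 0.490 and 0.451 in leptonema/zygonema, pachynema and diplonema, which placed the median peak at percentile 42.3, 39.8 and 38.4 of its list. They supplied 12.4%, 11.9% and 9.50% of the peaks of these lists.

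In leptonema/zygonema 7416 of the 9893 TREs had a peak (75%, interval 74.1 to 75.8), against 78.2% of all autosomal TREs. In pachynema 6599 had one (66.7%, interval 65.8 to 67.6), against 72.1%, and in diplonema 2873 (29.0%, interval 28.2 to 29.9), against 39.0%. All 3 shares were thus below that of all TREs, by the most in diplonema. Promoter-proximal TREs had shares of 81.7%, 81.6% and 56.8%, and far intergenic TREs 77.6%, 67.8% and 27.0%. The diplonema list is the shortest, with 38603 peaks against 71107 and 68352. When each list was limited to its 38603 highest-scoring peaks, the shares were 67.8%, 60.5% and 55.7% in leptonema/zygonema, pachynema and diplonema, so the diplonema share moved with list length. The part of depth and of fraction purity in list length was not tested.

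The 9893 TREs fell into 7 patterns of calls. The most common was leptonema/zygonema only, with 2903 TREs (29.3%, against 24.3% of all autosomal TREs). Next came leptonema/zygonema with pachynema, 2414 (24.4%, against 21.8%), all 3 substages, 2046 (20.7%, against 31.4%), and pachynema only, 1703 (17.2%, against 14.8%). Pachynema with diplonema had 436 (4.41%, against 4.00%), diplonema only 338 (3.42%, against 3.04%), and leptonema/zygonema with diplonema 53 (0.536%, against 0.566%). Scores followed the number of substages. The median highest score was 1.04 for TREs called in all 3, 0.667 for leptonema/zygonema with pachynema, 0.538 for pachynema with diplonema, and 0.389, 0.367 and 0.333 for those called in leptonema/zygonema, pachynema or diplonema only.

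**Figure D1:**
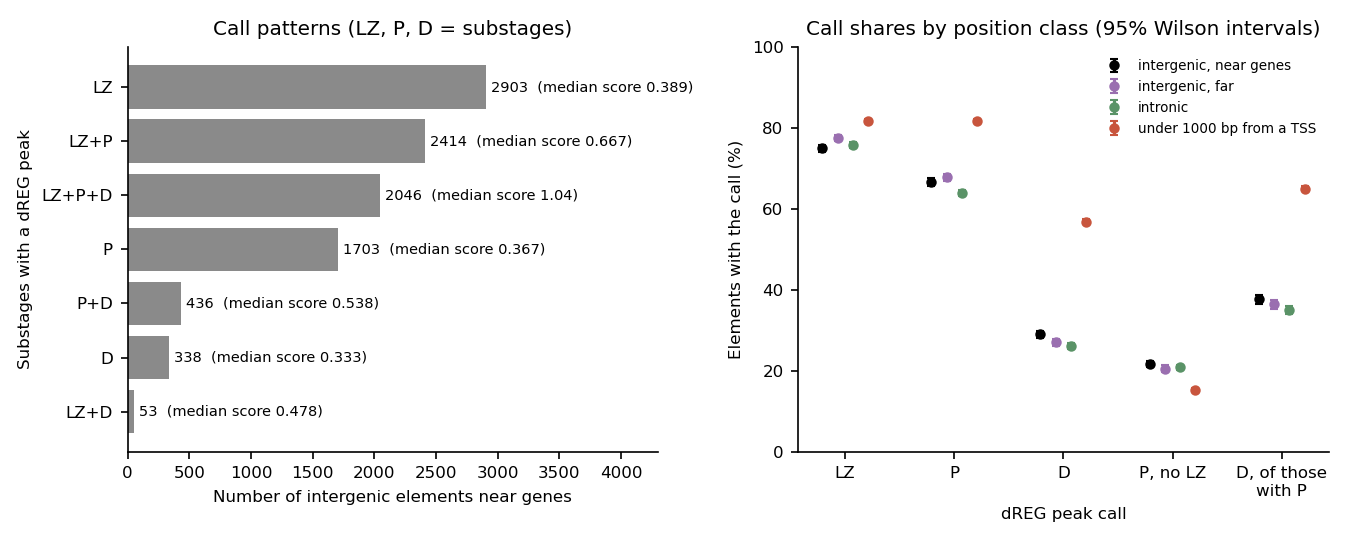
Left, number of near-gene intergenic TREs in each of the 7 call patterns, with the median highest dREG score beside each bar (LZ, leptonema/zygonema, P, pachynema, D, diplonema). Right, share of TREs with each call in 4 position classes, with 95% Wilson intervals for counting error, where the near-gene intergenic share in diplonema is 29.0% and the promoter-proximal share 56.8%.

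Whether a TRE was found again in another substage depended on its score. Of near-gene intergenic TREs in the lowest quintile of the leptonema/zygonema list, 23.9% (interval 22.0 to 26.0) also had a pachynema peak, and the share rose through 39.6%, 63.7% and 89.0% to 99.8% (1307 of 1310) in the highest quintile. For TREs with a pachynema peak, the share that also had a diplonema peak rose from 9.39% in the lowest quintile to 89.7% in the highest. Over all scores that share was 37.6% (2482 of 6599, interval 36.5 to 38.8), against 49.2% of all TREs with a pachynema peak and 65.0% of promoter-proximal ones. At matched pachynema score, the share of near-gene intergenic TREs with a diplonema peak lay between those of the other groups. In the fourth quintile, for example, 61.7% (interval 58.9 to 64.5) had a diplonema peak, compared with 78.0% (interval 76.7 to 79.2) of promoter-proximal and 51.9% (interval 49.1 to 54.6) of far intergenic TREs. That order did not hold in every direction. In the lowest pachynema quintile, a leptonema/zygonema peak was found for 36.9% (interval 34.5 to 39.3) of near-gene intergenic, 39.3% (interval 37.5 to 41.1) of promoter-proximal and 41.1% (interval 38.6 to 43.6) of far intergenic TREs.

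**Figure D2:**
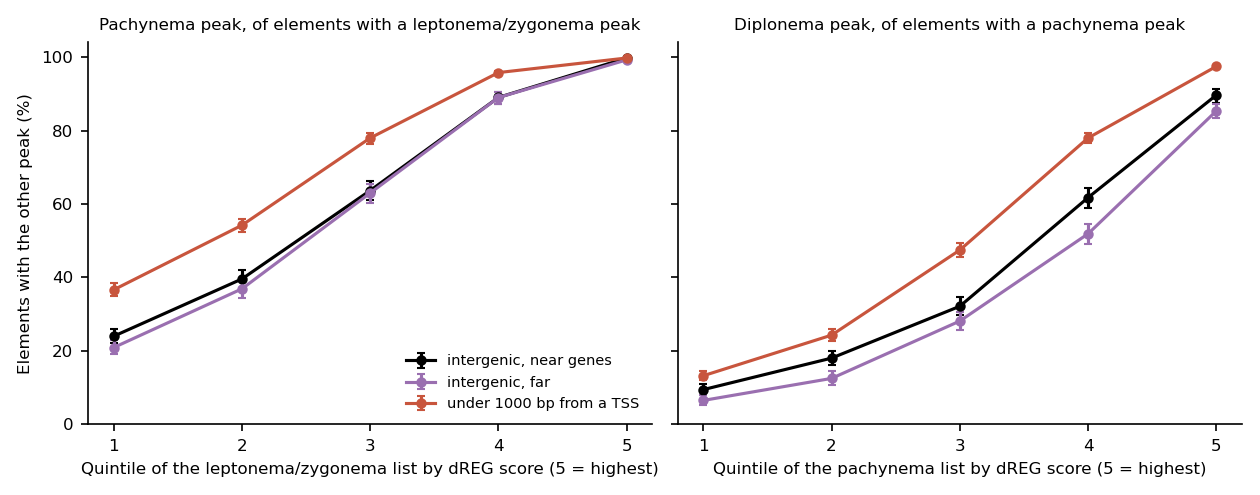
Share of TREs that had a peak in a second substage (left, pachynema peak among TREs with a leptonema/zygonema peak, right, diplonema peak among TREs with a pachynema peak) by quintile of the first list, ranked by dREG score, with 95% Wilson intervals. Near-gene intergenic TREs rise from 23.9% to 99.8% on the left, and on the right lie between promoter-proximal and far intergenic TREs in each quintile.

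The 2046 TREs called in all 3 substages included the highest scores of the whole set. Outside chromosome 18, which is left out of the ranking of TREs within each pattern, the highest-scoring one, nearest to Lrpap1, which encodes a chaperone of LDL receptor family proteins, scored 1.515, 1.224 and 0.6 in leptonema/zygonema, pachynema and diplonema. The TRE nearest to Slc28a3, a nucleoside transporter gene, scored 1.496, 1.278 and 0.956, and the TRE nearest to Tbx19, a T-box transcription factor gene, 1.489, 1.345 and 0.906. All 3 had their lowest score in diplonema, although scores are not scaled between lists.

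Among TREs called in fewer substages, single examples reached high scores. The strongest leptonema/zygonema-only TRE scored 1.096 and lay 16450 bp downstream of the TSS of Sub1, which encodes a transcriptional coactivator. It was followed by TREs nearest to Aym1 (score 1.009) and Sparc (score 1.004), the latter a matrix glycoprotein gene. The strongest pachynema-only TRE, 41809 bp upstream of the proteoglycan gene Spock1, scored 1.003, and those nearest to Plekha5 and the gamma-tubulin gene Tubg2 scored 0.959 and 0.945. The strongest diplonema-only TRE, 26429 bp upstream of the arginine methyltransferase gene Prmt8, scored 1.209, and the next, nearest to Slc25a40 and Cd180, scored 0.779 and 0.740. With leptonema/zygonema and pachynema peaks, the leading TREs were nearest to the sulfotransferase gene Chst14 (scores 1.416 and 1.112), to Trip13 (scores 1.362 and 1.022), whose product removes HORMA-domain proteins from synapsed axes, and to the mucin gene Muc6 (scores 1.346 and 0.423). The leading TREs with leptonema/zygonema and diplonema peaks were nearest to Tapt1, Ackr2 and Uqcrfs1, with diplonema scores of 0.295, 0.332 and 0.285. Of the 1310 TREs in the highest leptonema/zygonema quintile, 3 had no pachynema peak.

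Gained TREs, with a pachynema and no leptonema/zygonema peak, numbered 2139 (21.6%, interval 20.8 to 22.4), against 18.8% of all autosomal TREs. The opposite call, a leptonema/zygonema and no pachynema peak, was made for 2956 (29.9%, interval 29.0 to 30.8), against 24.9%. Far intergenic TREs had these calls in 20.5% and 30.3%, intronic TREs in 20.9% and 32.9%, and promoter-proximal TREs in 15.2% and 15.3%. The gained TRE with the highest score lay 2849 bp upstream of Ascc3, a helicase gene of the ASCC complex, at chr10:50589381-50589820, and scored 1.213 in pachynema and 0.951 in diplonema. It was followed among TREs with pachynema and diplonema peaks by TREs nearest to Plscr5 (scores 1.197 and 1.121) and to Ppt1, a lysosomal thioesterase gene (scores 0.821 and 1.161). Most gained TREs were weak, and 158 of the 2139 scored at least 0.7. Of the gained TREs, 43 (2.01%) had a leptonema/zygonema peak within 20 bp and 525 (24.5%) within 1000 bp. Of the 11 near-gene TREs of somatic testis marker genes, 6 were gained (interval 28.0% to 78.7%). Their part in the gained calls was not tested.

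The MYB word GGCNGTT, searched on both strands within 100 bp of the centre, was present in 1037 of the 9893 TREs (10.5%). All autosomal TREs had it in 9.80% of windows, and 31365 RefSeq promoters in 8.66% of windows of the same length, ending 50 bp after the start. Gained TREs held it in 13.9% (298 of 2139, interval 12.5 to 15.5), TREs with leptonema/zygonema and pachynema peaks in 10.7% (476 of 4460, interval 9.80 to 11.6), and TREs with a leptonema/zygonema and no pachynema peak in 7.75% (229 of 2956, interval 6.84 to 8.77). The 3 intervals did not overlap. In the paper, MYB motifs scored highest among those enriched in dREG peaks that rose from leptonema/zygonema to pachynema in the same libraries. The shares given here are thus not an independent test of that result. Among gained TREs the share with GGCNGTT was 20.9% (interval 17.3 to 24.9) where diplonema was also called and 12.2% (interval 10.7 to 13.8) where it was not. Likewise, among TREs with leptonema/zygonema and pachynema peaks it was 13.4% (interval 12.0 to 15.0) with and 8.33% (interval 7.29 to 9.50) without a diplonema peak. For the other MYB word, CAGTTG, the shares were 15.1% (interval 13.7 to 16.7), 13.0% (interval 12.0 to 14) and 11.2% (interval 10.1 to 12.4), and the intervals of neighbouring groups overlapped. With and without a diplonema peak, CAGTTG was in 24.5% (interval 20.7 to 28.8) and 12.7% (interval 11.2 to 14.4) of gained TREs, and in 14.5% (interval 13.0 to 16.1) and 11.7% (interval 10.5 to 13.0) of shared ones, where the intervals overlapped narrowly. TREs with a diplonema peak also scored higher. Their median highest score was 0.538 against 0.367 in gained and 1.04 against 0.667 in shared TREs. The part of score in the split by diplonema peak was not tested.

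The difference was widest in strong TREs. Gained TREs that scored at least 0.7, such as those printed for Gm9376 and Kcna5, held GGCNGTT in 48 of 158 windows (30.4%, interval 23.7 to 38.0). TREs of the same score with leptonema/zygonema and pachynema peaks held it in 11.3% (interval 10.2 to 12.5), and those with a leptonema/zygonema and no pachynema peak in 12.7% (interval 8.26 to 18.9) of 150, so the order of the latter groups was not that over all scores. Below a score of 0.4 the shares were 10.6% (interval 8.95 to 12.5) in gained and 8.48% (interval 5.50 to 12.9) in shared TREs, and the intervals overlapped. TREs with a leptonema/zygonema and no pachynema peak had 7.30% (interval 6.12 to 8.69), below the interval of gained TREs. When strata were made from the pachynema score alone, the shares at 0.7 or more were 29.6% (interval 22.7 to 37.5) in gained and 12.3% (interval 10.9 to 13.8) in shared TREs. CAGTTG gave 32.3% (interval 25.5 to 39.9) of strong gained TREs and 13.5% (interval 12.2 to 14.8) of the strong shared ones. The words share letters where GGCAGTTG occurs, so these are not separate measurements. Windows were centred on the highest-scoring peak of any substage, which in shared but not in gained TREs can be a leptonema/zygonema peak. The part of this centring in the gap was not tested.

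Strong gained TREs of the other classes held GGCNGTT in 29.9% (interval 24.0 to 36.5) of far intergenic, 29.7% (interval 24.2 to 35.8) of intronic and 20.6% (interval 16.4 to 25.6) of promoter-proximal windows. The shares with CAGTTG were 39.2% (interval 32.8 to 46.1), 35.2% (interval 29.4 to 41.5) and 17.5% (interval 13.6 to 22.3), of which only the promoter-proximal interval lay apart from that of near-gene intergenic TREs. Base composition differed little between the groups, with a median GC content of 49.0% in gained and in shared TREs and 47.5% in those with a leptonema/zygonema and no pachynema peak. In each of 4 bins of GC content the share of gained TREs with GGCNGTT was above that of shared TREs, from 9.78% against 6.63% below 45% GC to 16.7% against 11.1% at 55% or more. The intervals of the pair overlapped in each bin. CAGTTG was above the shared TREs in the 3 lower bins and below them at 55% GC or more, with 9.09% (interval 6.67 to 12.3) of gained and 10.4% (interval 8.46 to 12.6) of shared TREs. In gained and shared TREs, matches to GGCNGTT were most frequent around the centre. Of gained windows, 4.21% had one in the 50 bp after the centre, compared with 1.59% in the 50 bp ending 1000 bp away. For shared TREs the same values were 3.05% and 1.57%. For TREs with a leptonema/zygonema and no pachynema peak they were 2.1% and 1.62%, without a central peak, since 2.23% had a match at 250 to 300 bp. Gained TREs with no leptonema/zygonema peak within 1000 bp held GGCNGTT in 15.8% (interval 14.1 to 17.7) of 1614 windows, and those with such a peak in 8.19% (interval 6.14 to 10.9) of 525. Of these, 149 and 9 scored at least 0.7, so the groups also differed in score. At that score the shares were 31.5% (interval 24.6 to 39.4) and 11.1% (1 of 9, interval 1.99 to 43.5), with overlapping intervals.

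**Figure D3:**
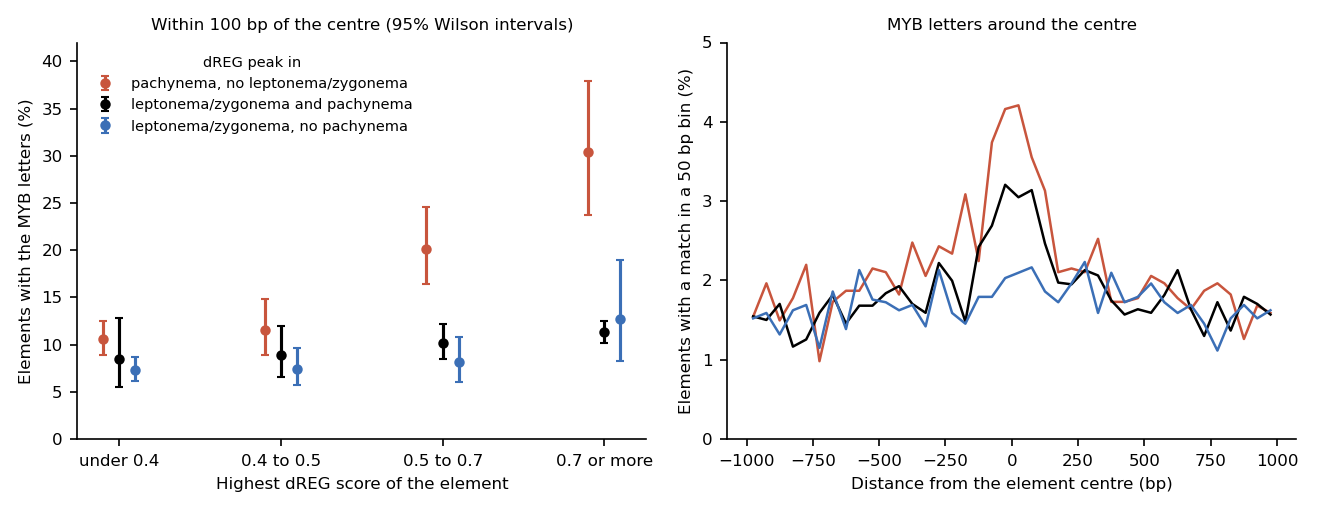
Left, share of near-gene intergenic TREs with the MYB word GGCNGTT within 100 bp of the centre, by highest dREG score and call group, with 95% Wilson intervals. Right, share with a match in each 50 bp bin by distance from the centre. Gained TREs of score 0.7 or more reach 30.4%, against 11.3% of those also called in leptonema/zygonema, and the profiles of gained and shared TREs peak at the centre.

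Over all scores, the RFX and CREB/CREM words were most frequent in shared TREs and least frequent in gained ones. GTTGCCA was found in 3.41% (interval 2.72 to 4.27) of gained TREs, 9.46% (interval 8.64 to 10.4) of TREs with leptonema/zygonema and pachynema peaks, and 4.91% (interval 4.18 to 5.74) of those with a leptonema/zygonema and no pachynema peak, against 5.40% of all autosomal TREs and 3.22% of RefSeq promoters. GTTGCTA gave 2.81%, 7.04% and 5.04%, against 4.59% of all autosomal TREs. TGACGTCA was in 5 gained windows (0.234%, interval 0.0999 to 0.546) and 83 shared windows (1.86%, interval 1.5 to 2.30), against 1.38% of all autosomal TREs. The gap in GTTGCCA depended on score. At a score of at least 0.7 it was in 1.90% (interval 0.648 to 5.43) of gained and 11.5% (interval 10.4 to 12.7) of shared TREs. TREs of that score with a leptonema/zygonema and no pachynema peak had 10.0% (interval 6.15 to 15.8), which overlapped the shared ones. From 0.5 to under 0.7 the latter group was above the shared TREs, at 7.14% (interval 5.20 to 9.73) against 5.96% (interval 4.65 to 7.61), with overlapping intervals. Gained TREs there had 4.03% (interval 2.46 to 6.55). Below 0.4, where 1151 of the gained TREs lie, GTTGCCA was in 3.82% (interval 2.86 to 5.09) of gained, 4.91% (interval 2.76 to 8.58) of shared and 3.65% (interval 2.83 to 4.69) of TREs with a leptonema/zygonema and no pachynema peak. For TGACGTCA the intervals overlapped at 0.7 or more, with 0.633% (interval 0.112 to 3.50) of gained and 2.28% (interval 1.79 to 2.9) of shared TREs. Among TREs scoring at least 1, GTTGCCA was present in 12.6% and TGACGTCA in 3.17%. Gained TREs were below shared ones in other classes too. Promoter-proximal TREs held GTTGCCA in 2.43% of gained and 4.99% of shared windows, and TGACGTCA in 0.672% and 2.74%. Far intergenic TREs scoring at least 0.7 held GTTGCCA in 3.92% (interval 2 to 7.55) and 10.5% (interval 9.48 to 11.6). The paper reports CREB and RFX2 motifs as enriched in active and open regions in pachynema. That comparison was not repeated here. GTTGCCA and CAGTTG can share letters, and a match describes the letters only.

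Of the other words searched, CCAAT (NF-Y) was as frequent in gained (26.6%) as in shared (26.8%) TREs, and TGACTCA (AP-1) was in 4.96% and 5.99% with overlapping intervals. The CTCF word was in 2.95% (interval 2.31 to 3.75) of gained and 2.09% (interval 1.71 to 2.55) of shared TREs, again with overlapping intervals. GGGCGG (SP/KLF) was in 9.36% of near-gene intergenic TREs, against 34.7% of promoter-proximal and 5.31% of far intergenic ones. Composition followed the same order. The median GC content was 48.5%, against 56.0% in promoter-proximal and 46.5% in far intergenic windows, and CpG-rich windows (55% GC or more and a CpG ratio of at least 0.6) made up 4.33%, against 39.7% and 1.67%. The median window was 12.5% soft-masked, and 3251 windows (32.9%) held no masked base.

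The rule sets the range of distances, but not how the TREs are spread within it. Counted per Mb of intergenic bases that could have held them, near-gene TREs had a density of 23.8 per Mb (interval 23.3 to 24.2, over 416 Mb), compared with 12.3 per Mb (interval 12.1 to 12.5) at 50000 bp or more. The density was highest from 1000 to 2000 bp, at 35.7 per Mb (interval 32.8 to 38.9), and between 22.1 and 24.7 per Mb in each of the other bins up to 50000 bp. Hence the density did not decline steadily from 2000 to 50000 bp. The median distance was 16431 bp. Upstream bases held 24.4 TREs per Mb (interval 23.8 to 25) and downstream bases 22.6 (interval 21.8 to 23.4), and 68.2% of the TREs were upstream, against 66.5% of the eligible bases. TREs whose nearest edge lay in the first 1000 bp beyond a gene end numbered 26.4 per Mb of eligible bases there (interval 23.7 to 29.3). In the next 1000 bp the value was 21.8 (interval 19.3 to 24.6), with overlapping intervals. TREs were placed by their edge and bases by their own position. A TRE with its midpoint beyond 1000 bp can thus count in the first bin, which draws on a wider stretch than its bases. The part of this in the difference was not tested. For 6032 TREs the nearest TSS of any gene was the protein-coding one, and for 3861 it belonged to another type of gene.

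The share called in pachynema rose with distance from the gene, from 59.6% (interval 55.4 to 63.7) at 1000 to 2000 bp through 66.5% at 10000 to 20000 bp to 70.7% (interval 67.8 to 73.4) at 40000 to 50000 bp. In diplonema it was 21.2% (interval 18 to 24.9) in the nearest bin and 31.0% (interval 28.2 to 33.9) in the farthest. In leptonema/zygonema it lay between 72.8% and 77.7% without a trend. The median highest score was 0.433 in the nearest bin and 0.532 in the farthest, so distance and score moved together, and their parts in the rise were not tested. At the upper limit, 477 TREs lay 45000 to 50000 bp from a protein-coding TSS, and 412 intergenic TREs lay just outside it, at 50000 to 55000 bp. At the lower limit, 875 lay 1000 to 2000 bp from a TSS of any gene.

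**Figure D4:**
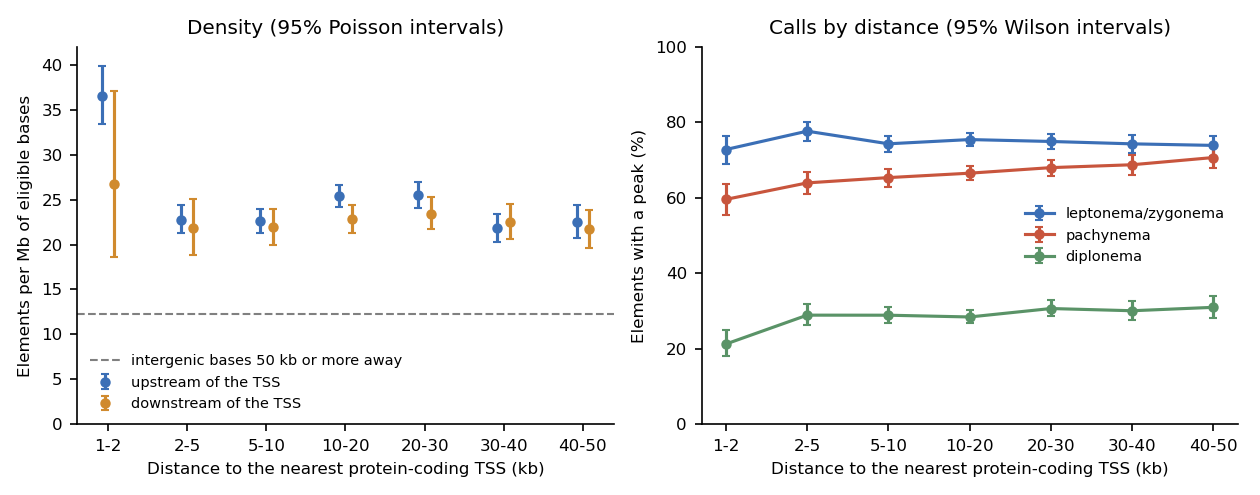
Left, density of near-gene intergenic TREs per Mb of eligible bases by distance to the nearest protein-coding TSS, upstream and downstream, with 95% Poisson intervals and the far intergenic density of 12.3 per Mb as a dashed line. Right, share of TREs with a peak in each substage by distance, with 95% Wilson intervals, where the pachynema share rises from 59.6% to 70.7%.

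Near-gene intergenic TREs often lay side by side. Another TRE of any class was within 1000 bp of 4213 (42.6%) and within 20 bp of 2141 (21.6%), and the median gap was 2150 bp, against 5950 bp for far intergenic TREs. The nearest TRE was another near-gene intergenic one for 64.5% and a promoter-proximal one for 26.5%. Gained TREs had gained neighbours at short range. Where the nearest TRE was within 1000 bp, it was also gained for 41.7% (interval 38.5 to 44.9) of gained TREs, against 13.4% (interval 12.3 to 14.7) of TREs with a leptonema/zygonema peak. At 5000 to 20000 bp the shares were 22.0% (interval 18.8 to 25.6) and 18.7% (interval 17.0 to 20.6), whose intervals overlapped. Adjoining peaks can be pieces of 1 region of initiation, and their part in this short-range likeness was not tested. Joining peaks up to 500 bp apart left 7744 TREs in place of 9893. By chromosome, the gained share ran from 16.2% (interval 12.8 to 20.4) on chromosome 16 to 28.1% (interval 24.3 to 32.3) on chromosome 3, and the diplonema share from 25.1% on chromosome 7 to 37.7% on chromosome 13.

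Whether the gene nearest to a gained TRE also gained a promoter peak was compared next. A gene had a promoter peak when a peak lay under 1000 bp from one of its TSSs, and a gained promoter when this was so in pachynema and not in leptonema/zygonema. The nearest gene had a gained promoter for 91 of the 2139 gained TREs (4.25%, interval 3.48 to 5.20). For TREs with a leptonema/zygonema peak the count was 333 of 7416 (4.49%, interval 4.04 to 4.99). The difference is smaller than the counting error. Among the 158 strong gained TREs it was 5 (3.17%, interval 1.36 to 7.19), and 3.58% of all 20807 autosomal protein-coding genes had a gained promoter. For 57.7% of all near-gene intergenic TREs the nearest gene had a promoter peak in all 3 substages, against 50.2% of all protein-coding genes, and for 25.7% it had none, against 35.2%. The nearest gene is not always the gene a TRE acts on, and the lists cannot assign targets.

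In all, 5284 of the 20807 protein-coding genes (25.4%) were the nearest gene of at least 1 near-gene intergenic TRE. One such TRE was assigned to 2818 of them, and 5 or more to 248. Atp23, a gene for a peptidase needed to assemble mitochondrial ATP synthase, had the most, with 11, of which 10 lay upstream, 10 had a leptonema/zygonema peak, 6 a pachynema peak and 3 a diplonema peak. Their highest scores ran from 0.323 to 1.085. In the next place was Aym1 with 10 TREs, 6, 4 and 5 called in leptonema/zygonema, pachynema and diplonema. Ties at 9 were ordered by highest score, and the first were the homeobox gene Msx1, the keratin-associated protein gene Krtap20-2, the spermatid histone gene H2al2a, the chromatin remodeller gene Chd7, Serp2, 1700017B05Rik, the cell polarity gene Pard6b and the telomere-binding protein gene Terf1, while Tank and Prickle1 had 9 as well. Of the first 10 genes, Aym1, Msx1 and Krtap20-2 had no promoter peak in any substage. The TREs around H2al2a, which had promoter peaks in all 3 substages, were all called in leptonema/zygonema, 5 of them also in pachynema and 3 in diplonema, and all lay downstream of its start.

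The genes with the most gained TREs were named by the same count. Kcna5, a voltage-gated potassium channel gene without a promoter peak, was nearest to 6 TREs, of which 5 were gained and the other was called in all 3 substages. A run of 3 adjoining gained TREs lay 33122 to 34692 bp downstream of its TSS. The strongest of them, whose sequence is printed for Kcna5, scored 0.678 in pachynema and 1.03 in diplonema. Ndfip1 (5 of 6), Tank (5 of 9), Samd5 (4 of 6) and Nkain1 (4 of 5) also had many gained TREs. Conversely, all 5 TREs nearest to Capsl were called in leptonema/zygonema and none in pachynema or diplonema, with scores from 0.310 to 0.492. Pard6b (6 of 9), Gpr180 (5 of 6), Aym1 (5 of 10) and Atp23 (5 of 11) had the same call for several of their TREs.

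**Figure D5:**
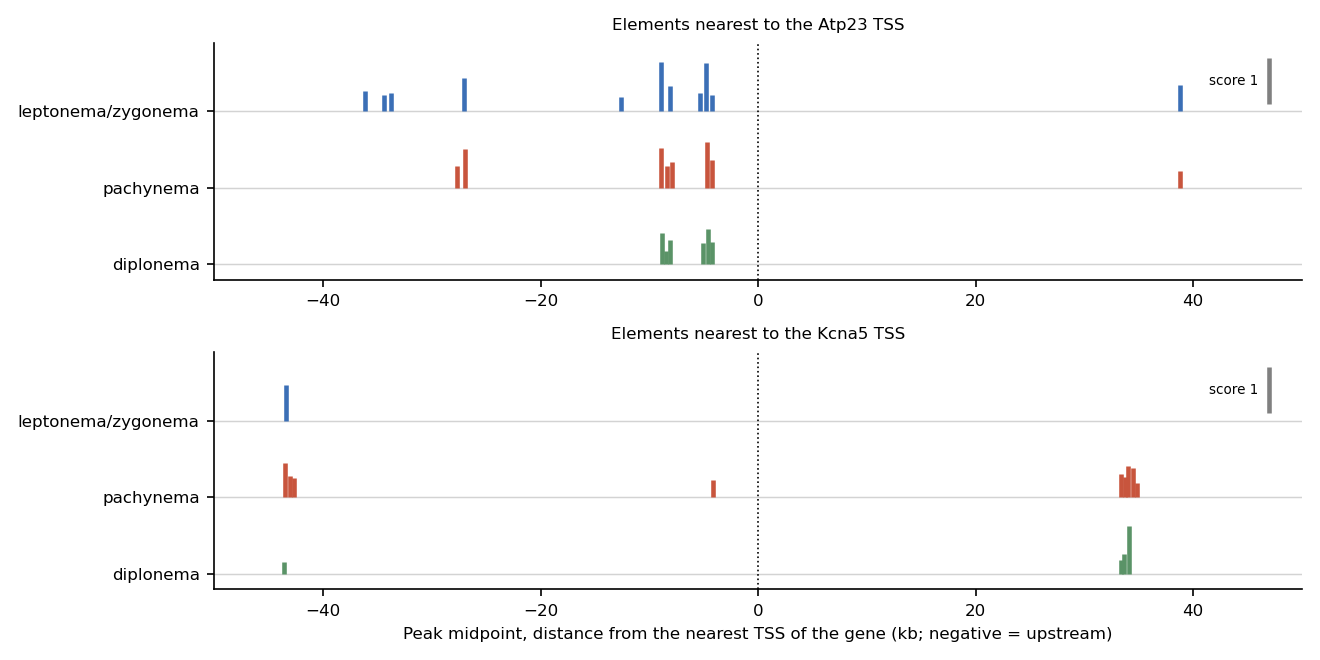
Peaks of the near-gene intergenic TREs nearest to Atp23 and Kcna5, by distance of the peak midpoint from the nearest TSS of the gene, with 1 lane per substage and line height equal to the dREG score (grey bar, score 1). The leptonema/zygonema lane is filled around Atp23, where 10 of 11 TREs were called, and nearly empty around Kcna5, where 1 of 6 was called.

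The TREs were also read against 11 lists of genes chosen for this tissue, beside the 25.4% of all protein-coding genes that were nearest to at least 1 near-gene intergenic TRE. Of 17 spermatogonial genes 9 had such a TRE (52.9%), of 19 genes of the piRNA pathway 8 (42.1%), of 24 somatic marker genes 10 (41.7%) and of 28 axoneme and flagellum genes 8 (28.6%). The counts were 4 of 16 for the synaptonemal complex and meiotic axis, 5 of 21 for Pol II pausing and elongation (23.8%), 8 of 39 for the HoxA to HoxD clusters (20.5%) and 5 of 25 for transcription regulators of meiosis. They were 10 of 54 for cytoplasmic ribosomal proteins (18.5%), 5 of 30 for acrosome and spermatid genes (16.7%) and 2 of 21 for double-strand break formation and recombination (9.52%). Each list is short, and the amount of intergenic sequence around its genes was not measured.

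Among meiotic genes, the cohesin subunit gene Rad21l had 3 near-gene intergenic TREs. The strongest lay 1958 bp upstream of its TSS and scored 0.715 in leptonema/zygonema and 1.016 in pachynema, and Rad21l itself had no promoter peak. A TRE 2446 bp upstream of the axis gene Hormad2 was called in leptonema/zygonema only, with a score of 0.654. The recombination gene Ankrd31 had a single one, a gained TRE 18762 bp upstream that scored 0.777 in pachynema and 0.505 in diplonema. Piwil1, which encodes the pachytene piRNA-binding protein MIWI, had 3 such TREs, of which 1 was gained, 17694 bp upstream, with scores of 0.782 and 0.739 in pachynema and diplonema. The piRNA pathway gene Asz1 had 3 and none gained, the strongest at 1.288, 1.201 and 0.607 in the 3 substages. Of the 18 TREs of the piRNA genes, 16 had a leptonema/zygonema peak, against 75% of all near-gene intergenic TREs, and 2 were gained (11.1%, interval 3.10 to 32.8), against 21.6%. For the transcription factor gene Rfx4, 1 of 5 TREs was gained, and the strongest scored 1.155, 1.022 and 0.793 at 15922 bp upstream. For Ctcfl, the gene of the testis paralogue of CTCF, the strongest of 2 scored 1.29, 1.004 and 0.887.

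Genes of earlier and later germ cells had TREs too. The spermatogonial gene Zbtb16, which encodes PLZF, had a TRE 14579 bp upstream with scores of 1.21, 1.114 and 0.414 in leptonema/zygonema, pachynema and diplonema. Lin28a and Id4, further genes of this list, had TREs of the same pattern, with highest scores of 1.153 and 1.061. Of 21 TREs of spermatogonial genes 13 had a leptonema/zygonema, 16 a pachynema and 11 a diplonema peak, against 75%, 66.7% and 29.0% of all near-gene intergenic TREs. The 7 gained ones made up 33.3% (interval 17.2 to 54.6), an interval that includes the 21.6% of all. A single gene, Ddit4, supplied 8 of the 21 TREs and 3 of the 7 gained ones, so these shares rest largely on 1 locus. Odf1, which encodes a sperm tail outer dense fibre protein, had a TRE 37458 bp downstream with scores of 1.034 and 0.764 in leptonema/zygonema and pachynema. The dynein heavy chain gene Dnah7a had one 3557 bp upstream with scores of 1.035 and 0.628.

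For the other lists counts were small and the intervals wide. Of the 21 TREs of ribosomal protein genes 20 had a leptonema/zygonema peak, against 75% of all near-gene intergenic TREs. Of the same 21, 1 was gained (4.76%, interval 0.846 to 22.7), an interval that includes the 21.6% of all. None of the 7 TREs of pausing and elongation genes was gained (interval 0 to 35.4), and the strongest, nearest to Cdk12, scored 1.093, 1.09 and 0.760. For Hox genes 3 of 12 TREs were gained (interval 8.89 to 53.2), among them one 5574 bp downstream of the Hoxc12 TSS with scores of 0.952 in pachynema and 0.544 in diplonema. Of the 11 TREs of somatic markers 6 were gained (54.5%, interval 28.0 to 78.7), against 21.6% of all near-gene intergenic TREs. They included TREs nearest to Acta2 (0.399 and 0.335 in pachynema and diplonema) and Pdgfra (0.433 in pachynema), while the TRE nearest to Inhbb scored 1.019, 0.790 and 0.320 in the 3 substages. The gained TREs of Acta2 and Pdgfra scored under 0.5, and each list rests on few TREs.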

How the data were processed

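Cells of 3 prophase I substages were profiled by leChRO-seq in 12 libraries. Per the paper's methods, the authors collapsed reads that shared a molecular identifier, cut adapters off with cutadapt, aligned with BWA to mm10 plus a ribosomal RNA unit, and called dREG peaks at default settings. bedtools is also named in the submitters' notes. The dREG version is not given in the sources used here. The study's methods describe paired-end reads and the labels single-end reads. Each deposited list gives, per peak, a dREG score, a p-value and the position of the peak centre. The score is the authors' own, and was not put on a common scale across the lists. No deposited p-value was above 0.05, and whether they are adjusted is not given in the sources used here. No read counts or depths are in the lists.

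Peaks that overlapped by 1 bp or touched were joined across the lists and classed against GENCODE M21. The eligible intergenic bases were counted at every 10th base. Motif letters were searched on both strands within 100 bp of the centre of the highest-scoring peak. RefSeq promoters were read from 200 bp ending 50 bp after the start. Joining, distances and motif search were tested on simulated data, with 0 wrong answers. TREs named are the 3 highest-scoring of each call pattern (chromosome 18 left out), and genes named are the 10 nearest to most TREs, the 5 nearest to most gained TREs, the 5 nearest to most TREs with a leptonema/zygonema and no pachynema peak, and up to 4 per gene list with the highest scores. Sequences follow the same ranking among unmasked windows outside chromosome 18. The TREs, lists and motifs were chosen with earlier results of these data known. Alternatives were a stricter score or p-value, lists of equal length, wider joining, other TSS sets and distances, another motif window and another MYB word. The check against RefSeq and the split by a neighbouring leptonema/zygonema peak were added after seeing the data. Differential tests of TREs, ATAC-seq and RNA-seq were not analysed here. The work used Python 3.11.15 with pysam 0.24.0, pandas 2.3.3, numpy 2.4.6, matplotlib 3.10.9 and scipy 1.17.1, and samtools 1.23.1.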

Additional observations from a re-analysis of the deposited data

How the results depend on the processing

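No paired analysis was possible because the libraries of each substage were pooled into 1 list before calling, which also meant that no single library could be withheld. Of 81 values under alternatives, 52 stayed within 1.5 times (counts) or within the interval of the main value (shares and medians), and 29 moved.

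With peaks of a score of at least 0.5, 5286 TREs remained, of which 80.7% had a leptonema/zygonema and 26.5% a diplonema peak, 906 were gained, and 18.3% of these held GGCNGTT. With lists of equal length there were 5496 TREs, with leptonema/zygonema, pachynema and diplonema shares of 67.8%, 60.5% and 55.7%, 877 gained TREs, 18.7% of them with GGCNGTT and 5.59% with a gained promoter at the nearest gene. Joining up to 500 bp gave shares of 78.1%, 72.1% and 33.2% and GGCNGTT in 15.6% of gained TREs. Taking only protein-coding TSSs gave a diplonema share of 30.4%. Under 20000 bp there were 5725 TREs, 65.1% with a pachynema and 28.0% with a diplonema peak, 1215 gained and 73.1% upstream. At 2000 bp or more from a TSS 66.9% were upstream. The 66.5% of eligible bases that lay upstream is for the full range, so neither of these upstream shares can be set against it. Within 50 bp of the centre GGCNGTT was in 7.48% of gained and 5.70% of shared TREs. CAGTTG was in 13.0% of shared TREs, and in 15.1% of gained ones. Without TREs at or in a RefSeq gene the pachynema share was 65.7% and the diplonema share 27.2%. Without a leptonema/zygonema peak within 1000 bp, 15.8% of gained TREs held GGCNGTT. Under each of the 7 alternatives that gave both values, the share with the MYB word was higher in gained than in shared TREs.

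The limits are those of the calls. A TRE without a peak was not called at the depth of the pooled list, which was not established here, and is not shown to be untranscribed.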
